A study of Mus musculus with 6 samples.

Results

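Imprinted genes are expressed mainly or only from the chromosome inherited from 1 parent, and they were followed here in the bone marrow of mice that expressed the human homeoprotein CDX2. A list of 47 symbols in 19 chromosomal clusters was matched to the gene identifiers of the count tables, which hold 39179 genes. Of the 47 genes, 44 were counted and 30 carried enough reads to be tested. *Kcnq1ot1*, *Snrpn* and *Peg13* were not analysed here. By textbook knowledge 17 of the 47 were classed as maternally and 26 as paternally expressed. The other 4 (*Gnas*, *Blcap*, *Ube3a* and *Trappc9*) were classed apart, as the allele used depends on the tissue or the isoform. A class names the allele used where the gene is imprinted, and whether a gene is imprinted in marrow was not tested. The counts do not separate the parental alleles, so every allele named below is background and every value is the sum over both chromosomes.

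Bone marrow RNA was sequenced from 6 littermates: 3 *MxCDX2* mice (genotype *RsCDX2::Mx1Cre*) and 3 control littermates, numbered here as control 1 (*RsCDX2* alone), control 2 (*Mx1Cre* alone) and control 3 (wild type). *RsCDX2* is a knockin at the *Rosa26* locus in which a stop sequence flanked by loxP sites precedes human *CDX2*, and *Mx1Cre* puts the Cre recombinase under the interferon-inducible *Mx1* promoter, so that Cre can act in any interferon-responsive cell and not in blood cells alone. All 6 mice, controls included, were 3 months old when injected 3 times with poly(I:C), an inducer of interferon, at 10 µg/g, and RNA was prepared 6 weeks later. The 6 libraries held 38646101 to 49899650 reads counted on genes. Mouse *Cdx2*, the only *CDX2* gene of the tables, had 152, 155 and 183 reads in *MxCDX2* mice 1, 2 and 3 and 4, 0 and 0 reads in the control mice. Reads were aligned to the mouse genome, and whether these came from the human knockin or from the mouse gene was not tested.

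Imprinting is set in the germ line, where control regions are methylated in the egg or in the sperm, and the mark is kept through the divisions of the embryo. Many imprinted genes lie in clusters in which a non-coding RNA and protein-coding genes are expressed from opposite chromosomes under 1 control region. *H19* and *Igf2*, *Dlk1* and *Meg3*, and *Cdkn1c* are abundant in the embryo and placenta. Of these, *H19* and *Cdkn1c* are known in adult marrow for their part in the quiescence of hematopoietic stem cells. As a class the products act on growth: *Igf2* and *Dlk1* are ligands or ligand-like, *Igf2r* and *Grb10* restrain growth factor signaling, and *Cdkn1c* restrains the cell cycle.

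The maternal non-coding RNAs *H19*, *Meg3*, *Rian* and *Mirg* are host transcripts of microRNAs, whose mature sequences are shown because they are what these transcripts can give rise to. The libraries were made from polyadenylated RNA and do not measure mature microRNAs, and no value below belongs to one. RefSeq (GRCm38.p6) places 2 mature microRNAs on 1 hairpin within *H19*, 3 within *Meg3*, 6 within *Rian* and 26, on 14 hairpins and with 25 different seeds, within *Mirg*. The 84-base hairpin of miR-675 was found in 3 of the 7 annotated *H19* transcripts, and its arms are in capitals.
Mir675 hairpin: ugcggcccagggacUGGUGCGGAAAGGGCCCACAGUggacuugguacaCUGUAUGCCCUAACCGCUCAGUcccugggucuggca
In the mature sequences that follow, capitals mark the seed, bases 2 to 8, which pairs with target RNAs. The arms of the *H19* hairpin lie at chr7:142577112-142577133 (5p) and chr7:142577078-142577099 (3p) on the minus strand of GRCm38, and those chosen from the chromosome 12 hosts are miR-770-5p of *Meg3*, miR-370-3p of *Rian* and the pair of *Mirg* microRNAs that share a seed.
miR-675-5p: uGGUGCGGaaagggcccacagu
miR-675-3p: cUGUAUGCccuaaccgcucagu
miR-770-5p: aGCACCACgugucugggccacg
miR-370-3p: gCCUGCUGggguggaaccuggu
miR-453: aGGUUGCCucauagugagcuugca
miR-496a-5p: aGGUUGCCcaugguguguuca

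Promoters are shown for the 3 genes of the *H19-Igf2* and *Dlk1-Dio3* clusters whose windows carry a searched motif. The letters TTTATG, a core of the motif that CDX factors bind, and TGCCGC, the motif of the imprint-keeping protein ZFP57, were searched on both strands (CATAAA and GCGGCA on the other strand) in windows from 250 bases before to 50 bases after the annotated start, taken from RefSeq (GRCm38.p6). No match of one overlaps a match of the other in the windows shown. Windows were found for 37 of the 47 genes, 56 windows in all, and *H19* and *Cdkn1c* had none. TTTATG was in 8 of the 56 windows and in 11.9% of all 32851 promoter windows, and TGCCGC in 11 of the 56 and in 11.6% of all. The window of *Dlk1* at chr12:109452573-109452872 holds TTTATG and 9 CpG, that of *Meg3* at chr12:109540746-109541045 holds TGCCGC on the other strand and 13 CpG, and 1 of the windows of *Igf2*, at chr7:142661222-142661521 on the minus strand, holds both and 14 CpG, against a median of 7 CpG over all windows. Matches are in capitals.
Dlk1 promoter window: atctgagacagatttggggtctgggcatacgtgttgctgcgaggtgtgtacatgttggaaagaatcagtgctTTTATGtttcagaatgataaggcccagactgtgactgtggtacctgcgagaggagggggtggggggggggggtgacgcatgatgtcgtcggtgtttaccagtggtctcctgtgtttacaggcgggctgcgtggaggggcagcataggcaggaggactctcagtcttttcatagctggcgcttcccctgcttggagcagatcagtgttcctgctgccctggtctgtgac
Meg3 promoter window: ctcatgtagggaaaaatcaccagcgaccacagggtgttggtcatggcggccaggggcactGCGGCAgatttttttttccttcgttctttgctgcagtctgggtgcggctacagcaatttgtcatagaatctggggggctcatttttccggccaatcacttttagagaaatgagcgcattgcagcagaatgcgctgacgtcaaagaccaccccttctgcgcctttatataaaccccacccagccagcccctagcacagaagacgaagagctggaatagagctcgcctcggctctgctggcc
Igf2 promoter window: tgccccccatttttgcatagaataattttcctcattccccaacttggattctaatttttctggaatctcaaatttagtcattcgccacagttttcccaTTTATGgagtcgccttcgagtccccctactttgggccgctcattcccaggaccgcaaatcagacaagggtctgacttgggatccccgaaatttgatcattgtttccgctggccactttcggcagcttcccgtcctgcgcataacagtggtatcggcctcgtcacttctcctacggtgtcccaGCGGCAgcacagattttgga

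The wild type control mouse stood apart from the other control mice in levels that enter the comparisons below. It held more than 2 times the count of the higher of the other controls for *Mest*, *Peg10*, *Sgce* and *Ndn*. Its summed megakaryocyte markers (*Pf4*, *Itga2b*, *Gp9*, *Vwf*) were 9.16 times, its 7 stem cell markers 6.20 times and its 10 markers of stroma, bone and endothelium 2.41 times the mean of the other 2 controls. The part of these cells in the control values was not tested. Without this mouse 6 imprinted genes passed as higher and 5 as lower, against 7 and 5 with it, since *Igf2* and *Meg3* were no longer called and *Slc22a18* was.

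Among the 30 imprinted genes tested, 7 rose and 5 fell in *MxCDX2* mice, where a change means a log2 fold change beyond 1 in either direction together with an adjusted p below 0.05 (quasi-likelihood test of edgeR, Benjamini-Hochberg over all genes). Over all 15980 genes tested, 13.6% passed the same thresholds, 4.59% upwards and 9.03% downwards. The risen genes were *H19*, *Igf2*, *Cdkn1c*, *Dlk1*, *Meg3*, *Rian* and *Rasgrf1*, and the fallen genes *Cd81*, *Grb10*, *Igf2r*, *Sgce* and *Ppp1r9a*. Of these, *H19*, *Dlk1* and *Rian* reached the filter on low counts through the *MxCDX2* mice alone, and *Meg3* did so in 1 control mouse and all 3 *MxCDX2* mice where 3 mice were needed, so a gene like them could hardly be tested without differing, and the counts over the tested genes give no support to any statement about the list. The median log2 fold change of the 30 genes was -0.23, against 0.00 over all genes. All 3 *MxCDX2* mice were above all 3 control mice for 9 of the 30 genes and below them for 9, against 21.4% and 20.7% of all genes, or 42.1% in either direction.

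Both parental classes held genes that rose and genes that fell. Of 12 maternally expressed genes tested, 4 rose (*H19*, *Cdkn1c*, *Meg3* and *Rian*) and 4 fell (*Cd81*, *Grb10*, *Igf2r* and *Ppp1r9a*). Of 14 paternally expressed genes tested, 3 rose (*Igf2*, *Dlk1* and *Rasgrf1*) and 1 fell (*Sgce*). Over all genes tested the shares were 4.59% upwards and 9.03% downwards. *H19*, *Rian* and *Dlk1* reached the filter through the *MxCDX2* mice alone, and *Meg3* nearly so, so the classes are not compared by these counts. None of the 4 genes with tissue- or isoform-dependent expression passed by edgeR or by DESeq2, the alternative tool, which called 15.7% of the genes it tested, and none had an unadjusted p below 0.05. The risen genes of the *H19-Igf2* and *Dlk1-Dio3* clusters, and the fallen genes of *Peg10-Sgce*, came from both parental classes. *H19*, *Dlk1*, *Meg3* and *Rian* could hardly be tested without differing, and the call of *Igf2* was kept in 1 of 6 fits that leave out a mouse. *Peg10*, which shares the control region of *Sgce*, did not pass (log2 fold change -0.76). No joint change of a cluster is read from these calls.

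**Figure D1:**
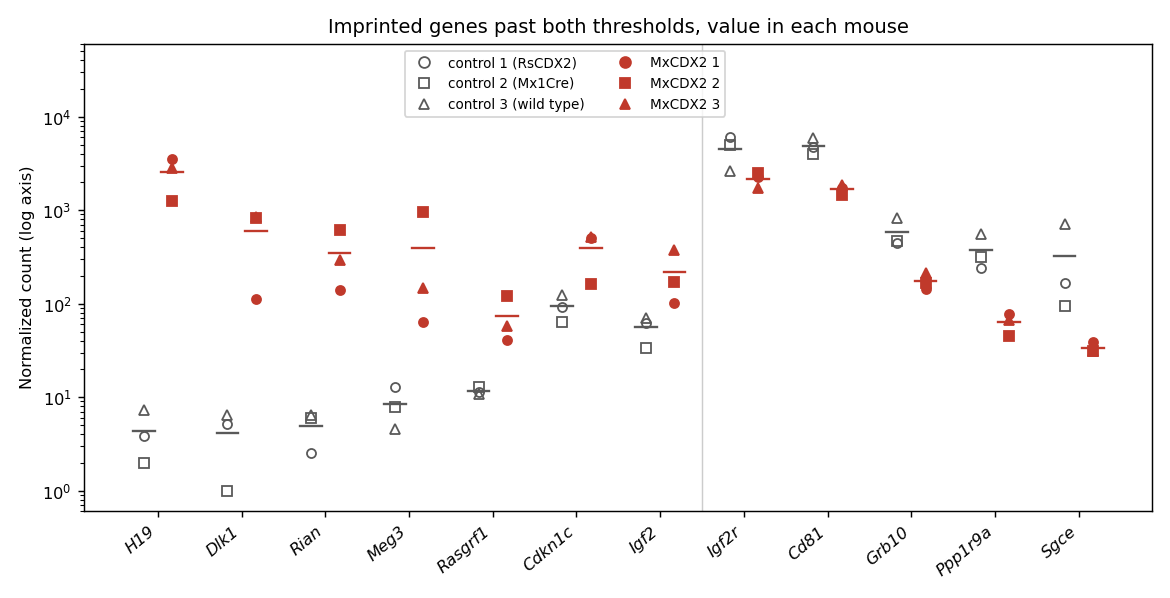
Normalized counts (log axis) of the 12 imprinted genes past both thresholds in each of the 6 mice, with open grey symbols for control mice, filled red symbols for *MxCDX2* mice and a short line at each group mean. The 3 *MxCDX2* mice lie above all control mice for the 7 genes on the left and below them for the 5 genes on the right.

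*H19*, a long non-coding RNA of growth restraint on distal chromosome 7 (chr7:142575529-142578143, minus strand), rose more than any other of the tested imprinted genes. Its normalized count, the read count scaled to the mean library, was 3553, 1255 and 2820 in *MxCDX2* mice 1, 2 and 3 and 3.83, 1.99 and 7.29 in control mice 1, 2 and 3. Every *MxCDX2* mouse was thus far above every control mouse, and mouse 2 was the lowest of the 3. This was a log2 fold change of 9.11 (SE 0.62, n = 3 against 3, adjusted p = 0.00115 by edgeR), or a fold of 582, and of 9.77 without the wild type mouse.

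*Igf2*, the fetal growth factor expressed from the paternal chromosome under the same control region, has its start 88.7 kb from that of *H19*. Its counts were 101, 170 and 379 in *MxCDX2* mice 1, 2 and 3 against 62.6, 33.8 and 71.1 in the control mice, a log2 fold change of 1.96 (SE 0.56, adjusted p = 0.0495 by edgeR). The groups did not overlap, but the margin between the nearest mice was small and the order of the *MxCDX2* mice differed from that for *H19*, with mouse 3 highest and mouse 1 lowest. The call was kept in 1 of the 6 fits that leave out a mouse, the one without *MxCDX2* mouse 1, and without *MxCDX2* mouse 3 the log2 fold change was 1.28 (adjusted p = 0.143). *Ins2*, an insulin gene next to *Igf2*, had no read in any mouse.

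Levels of the 2 genes of this cluster can be set beside each other as RPKM, which divides the reads by exon length and library size. *H19* stood at 31.8, 11.2 and 25.2 RPKM in *MxCDX2* mice 1, 2 and 3, and *Igf2* at 0.387, 0.655 and 1.46 RPKM. In the control mice *H19* was at most 0.0652 RPKM and *Igf2* at most 0.273 RPKM, so the order of the 2 genes was the other way round there.

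The *Kcnq1* cluster, whose maternal genes are silenced on the paternal chromosome by the antisense RNA *Kcnq1ot1*, held genes on both sides of the thresholds. *Cdkn1c*, which encodes the cyclin-dependent kinase inhibitor p57, had counts of 505, 161 and 521 in *MxCDX2* mice 1, 2 and 3 and of 92.0, 63.6 and 125 in the control mice. Mouse 2 was close to the wild type control mouse, and the other 2 were well above. Its log2 fold change was 2.08 (SE 0.51, adjusted p = 0.0301 by edgeR), and the call was kept in 2 of 6 fits that leave out a mouse, those without control 3 and without *MxCDX2* mouse 2, with adjusted p up to 0.103 in the others.

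*Cd81*, a tetraspanin of the surface of many cell types, fell. Its counts were 1744, 1470 and 1859 in *MxCDX2* mice against 4759, 4033 and 5905 in control mice, a clear gap with little spread inside either group. On the log2 scale the change was -1.54 (SE 0.17, adjusted p = 0.00258 by edgeR), to 0.345 of the control level.

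Between and around these genes the other members of the cluster did not pass. *Tssc4*, a spliceosome assembly factor whose start lies downstream of *Cd81* and which was among the higher members, had a log2 fold change of -0.00 (SE 0.13). *Slc22a18*, a transporter-like gene next to *Cdkn1c*, had 78.4, 77.4 and 88.8 counts in *MxCDX2* mice and 25.6, 27.8 and 52.0 in control mice, with a log2 fold change of 1.21 and an adjusted p of 0.0569, which misses the threshold by edgeR and passes it by DESeq2 (0.0093). *Ascl2*, a placental transcription factor, and the potassium channel gene *Kcnq1* lay at or under 35.8 counts in every mouse. *Phlda2*, which limits placental growth, was too low to test, with 2.12, 2.94 and 1.74 counts in *MxCDX2* mice and 6.39, 6.95 and 31.0 in control mice.

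**Figure D2:**
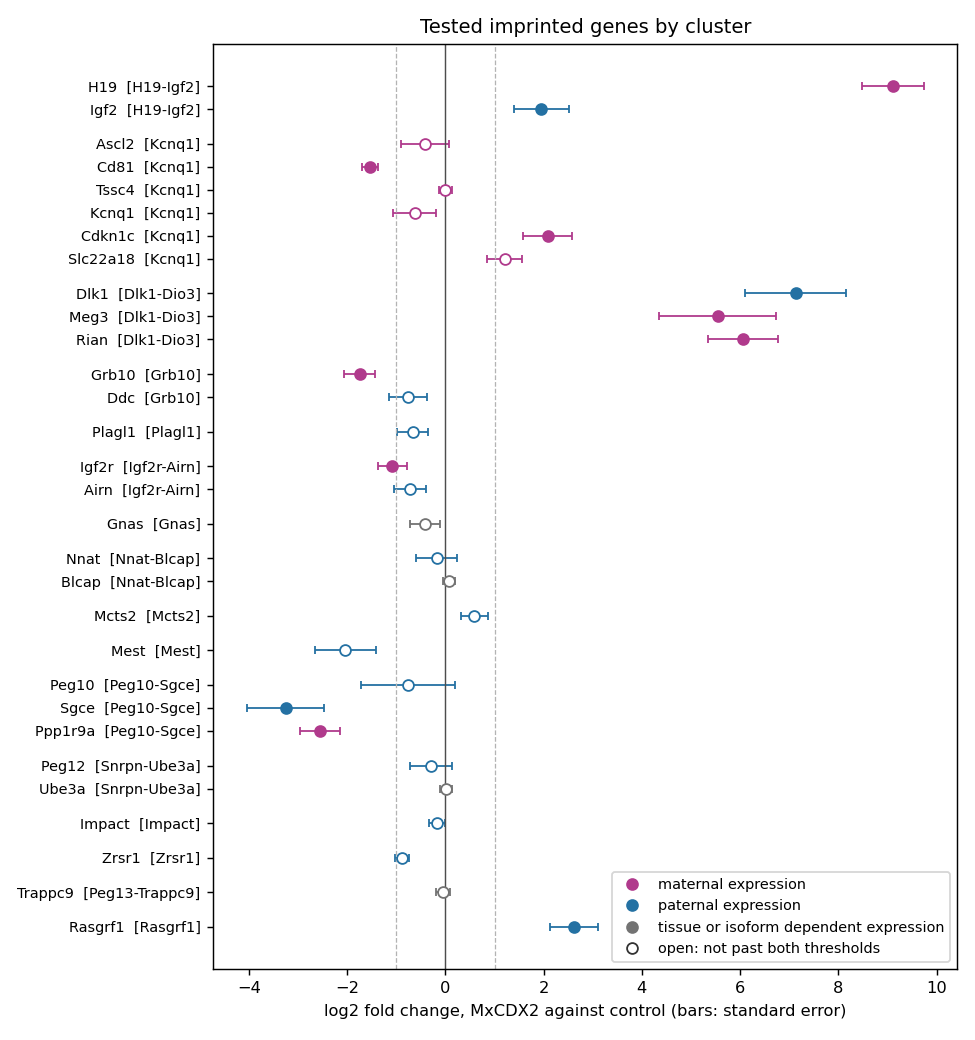
The log2 fold change of *MxCDX2* against control mice for the 30 tested imprinted genes, ordered by cluster, with bars of 1 standard error, colours for the expressed allele and dashed lines at the fold threshold. Filled points, past both thresholds, lie on both sides of zero in the maternal and in the paternal class.

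The *Dlk1-Dio3* cluster on distal chromosome 12 held 3 tested genes, from both parental chromosomes, and all 3 rose, beside 4.59% of all genes tested. *Dlk1* and *Rian* reached the filter through the *MxCDX2* mice alone, and *Meg3* through them and 1 control mouse. The count was thus largely set by the filter, and nothing about the cluster is read from it. *Dlk1*, a membrane protein related to Notch ligands and expressed from the paternal allele, had counts of 113, 830 and 856 in *MxCDX2* mice 1, 2 and 3 and of 5.11, 0.99 and 6.38 in the control mice. *MxCDX2* mouse 1 was far below the other 2 and still far above the controls. Its log2 fold change was 7.13 (SE 1.03, adjusted p = 0.00539 by edgeR), and it stayed past the thresholds whichever mouse was left out.

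*Meg3*, the maternal non-coding RNA whose start lies 88.2 kb from that of *Dlk1*, was the most uneven of the risen genes. It had 63.6, 959 and 146 counts in *MxCDX2* mice 1, 2 and 3, a range of 15.1 times, and 12.8, 7.94 and 4.56 in control mice. The log2 fold change was 5.54 (SE 1.19, adjusted p = 0.0201 by edgeR) and fell to 3.66 without *MxCDX2* mouse 2 (adjusted p = 0.0197). Leaving out any control mouse took the adjusted p to between 0.0503 and 0.0638.

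*Rian*, which hosts small nucleolar RNAs, and *Mirg*, which hosts the microRNAs shown above, follow *Meg3* on the same strand. *Rian* had 141, 609 and 291 counts in *MxCDX2* mice and 2.56, 5.96 and 6.38 in control mice, with a log2 fold change of 6.06 (SE 0.71, adjusted p = 0.00302 by edgeR) that was 5.38 without *MxCDX2* mouse 2. *Mirg* had 6, 90 and 13 reads in *MxCDX2* mice and 0 in each control mouse. With the reads of each group pooled and the controls set at a floor of 3 reads over the group, this is 33.7-fold. That value leaves out the spread among mice, as *MxCDX2* mouse 2 held 90 of the 109 reads. *Mirg* missed the filter on low counts and was called by edgeR with every gene of at least 1 read kept (adjusted p = 0.0322).

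The 3 maternal RNAs of chromosome 12 had the same order in the *MxCDX2* mice, with mouse 2 highest, mouse 3 next and mouse 1 lowest, while *Dlk1* was about as high in mouse 3 as in mouse 2. *MxCDX2* mouse 2 was also the library with the largest share of reads assigned to no gene feature, 14.1% against 9.22% to 11.3% in the others, and the part of this in the result was not tested. *Rtl1*, a retrotransposon-derived gene of the placenta, and *Dio3*, the deiodinase at the far end of the cluster, stayed at or under 2.61 normalized counts in every mouse. Annotated microRNA genes within *Meg3* had no read in any mouse.

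**Figure D3:**
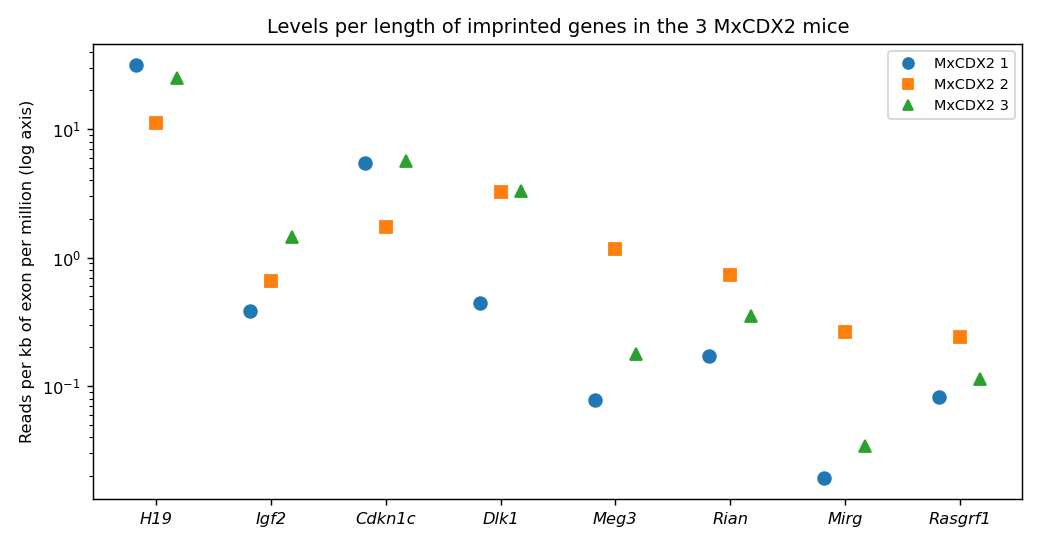
Levels per length (RPKM, reads divided by exon length and library size, log axis) of 8 imprinted genes in the 3 *MxCDX2* mice, with 1 symbol for each mouse. *H19* is the highest gene in every mouse, and mouse 2 is highest for *Meg3*, *Rian*, *Mirg* and *Rasgrf1* but lowest for *H19* and *Cdkn1c*.

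Per length, *H19* was the most abundant of the risen genes in every *MxCDX2* mouse. *Cdkn1c* came next in mice 1 and 3, at 5.45 and 5.62 RPKM, and *Dlk1* in mouse 2, at 3.23 RPKM. *Meg3*, with a summed exon length of 18089 bases, was at 0.0773, 1.17 and 0.178 RPKM, so that its 959 counts in mouse 2 stood for a far lower level per length than the 1255 counts of *H19*. The highest *MxCDX2* mouse exceeded the lowest by 2.83 times for *H19*, 3.25 times for *Cdkn1c*, 7.55 times for *Dlk1* and 4.33 times for *Rian*, against 1.25 to 1.74 times for the 5 fallen genes.

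*Rasgrf1*, a Ras exchange factor expressed from the paternal allele in the brain, was the other gene that rose. Its counts were 41.3, 120 and 57.5 in *MxCDX2* mice 1, 2 and 3 and 11.5, 12.9 and 10.9 in control mice. The control mice were nearly equal, and the *MxCDX2* mice kept the order seen for *Meg3*. The log2 fold change was 2.62 (SE 0.49, adjusted p = 0.0126 by edgeR), and the call was kept without any 1 mouse, but the level was low, at 0.0821 to 0.24 RPKM in *MxCDX2* mice.

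*Grb10*, an adaptor that inhibits the insulin receptor, had 143, 166 and 213 counts in *MxCDX2* mice and 446, 469 and 830 in control mice, a log2 fold change of -1.74 (SE 0.32, adjusted p = 0.0116 by edgeR). The groups stood well apart, and without the wild type mouse, the highest control, the log2 fold change was -1.38. *Ddc* of the same cluster, dopa decarboxylase, had a log2 fold change of -0.76 (adjusted p = 0.199), and *Cobl*, an actin nucleator, was too low to test.

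*Igf2r*, the receptor that clears IGF2 and sorts lysosomal enzymes, had 2240, 2481 and 1742 counts in *MxCDX2* mice and 6042, 4956 and 2655 in control mice. The wild type control mouse was close to the *MxCDX2* mice and the other 2 controls were far above. This gave a log2 fold change of -1.08 (SE 0.30, adjusted p = 0.0472 by edgeR). The call was kept in 1 of 6 fits that leave out a mouse, without the wild type mouse (-1.33, adjusted p = 0.00604), and it was lost when libraries were scaled by total counts (-0.95, adjusted p = 0.0514). *Airn*, the paternal antisense RNA that silences *Igf2r*, had 22.3, 24.5 and 14.8 counts in *MxCDX2* mice and 35.8, 31.8 and 33.7 in control mice, with a log2 fold change of -0.72 (adjusted p = 0.163). *Airn* overlaps *Igf2r* on the other strand, and the strand setting of the counting is not given in the sources used here.

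The *Peg10-Sgce* cluster on proximal chromosome 6 held 2 fallen genes. *Sgce*, epsilon-sarcoglycan, had 39.2, 31.3 and 31.3 counts in *MxCDX2* mice and 165, 95.3 and 713 in control mice, so that the wild type mouse held most of the control reads. For *Sgce* the log2 fold change was -3.25 (SE 0.79, adjusted p = 0.0293 by edgeR), it was -1.91 without the wild type mouse (adjusted p = 0.0129), and leaving out any *MxCDX2* mouse took the adjusted p to between 0.0763 and 0.107. *Ppp1r9a*, the actin-binding protein neurabin, had 78.4, 45.1 and 67.0 counts in *MxCDX2* mice and 243, 319 and 562 in control mice, with a log2 fold change of -2.56 (SE 0.40, adjusted p = 0.00726 by edgeR) that was kept without any 1 mouse.

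*Peg10*, a retrotransposon-derived gene whose start is 0.1 kb from that of *Sgce* and which shares its control region, did not pass. It had 27.5, 98.0 and 283 counts in *MxCDX2* mice and 198, 56.6 and 440 in control mice, and the groups overlapped (log2 fold change -0.76, SE 0.95, adjusted p = 0.613). *Mest*, a hydrolase gene also on chromosome 6, had 27.5 to 62.7 counts in the *MxCDX2* mice and 89.5 to 366 in the control mice. Its log2 fold change of -2.04 (SE 0.62) missed the threshold by edgeR (adjusted p = 0.0589) and passed it by DESeq2 (0.0037), and without the wild type mouse it was -1.16.

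Of the remaining well-covered genes, with a mean of at least 100 counts, most lay near zero. The log2 fold change was 0.01 for *Ube3a*, a ubiquitin ligase expressed from both alleles outside neurons, 0.08 for *Blcap*, -0.05 for *Trappc9* of the TRAPP trafficking complex, -0.17 for *Impact*, an inhibitor of the kinase GCN2, and -0.41 for *Gnas*, the stimulatory G protein alpha subunit. Standard errors of these 5 were 0.12 to 0.31. *Mcts2*, a retrocopy of *Mcts1* inside *H13*, was higher in all 3 *MxCDX2* mice (log2 fold change 0.59, adjusted p = 0.171). It lies inside *H13*, on the same strand, which rose, and how reads were shared among *Mcts2*, *Mcts1* and *H13* was not tested. *Zrsr1*, a splicing factor retrogene, had 651, 651 and 572 counts in *MxCDX2* mice and 1222, 1230 and 1014 in control mice, an even difference with an adjusted p of 0.00812 and a log2 fold change of -0.89 that misses the fold threshold.

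The 8 tested genes with a mean under 100 counts that did not pass (*Ascl2*, *Kcnq1*, *Slc22a18*, *Ddc*, *Plagl1*, *Airn*, *Nnat* and *Peg12*) had log2 fold changes from -0.76 to 1.21. The 14 genes counted and not tested were *Ins2*, *Phlda2*, *Rtl1*, *Mirg*, *Dio3*, *Peg3*, *Usp29*, *Zim1*, *Cobl*, *Asb4*, *Ndn*, *Magel2*, *Nap1l5* and *Slc38a4*. Of these, *Ins2*, *Usp29* and *Zim1* had no read at all, and none exceeded 90 reads in a mouse. *Ndn*, necdin, known to hold stem cells in quiescence, had counts of 4.24, 2.94 and 7.84 in *MxCDX2* mice and of 17.9, 8.94 and 51.1 in control mice, and it passed as lower by DESeq2 (adjusted p = 0.0304), which tested it.

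Genes that lie near a cluster without being among the 47 were also read, and some of them, such as *Tnfrsf23* and *H13*, are imprinted themselves. Over all clusters extended by 200 kb on either side, 540 other genes were listed and 91 tested, of which 6 rose and 11 fell, beside 4.59% and 9.03% of all genes tested, and nothing particular to the neighbourhoods is read from these counts. Near *H19* and *Igf2*, 3 of 7 tested genes rose: the troponin gene *Tnni2* (log2 fold change 1.85, SE 0.20), the leukocyte actin-binding gene *Lsp1* (1.05, SE 0.15) and the mitochondrial ribosomal gene *Mrpl23* (1.06, SE 0.16).

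Near the *Kcnq1* cluster, 5 of 10 tested genes fell, beside 9.03% of all genes tested, and no local effect is read from this count. These were the tetraspanin gene *Tspan32* (-1.59) with its antisense transcript *Tspan32os* (-1.38), *R74862* (-1.95), which overlaps *Cd81* on the other strand, and the death receptor genes *Tnfrsf26* (-1.12) and *Tnfrsf23* (-1.42). *Tspan32* and *Tspan32os* overlap as well, and the strand setting of the counting is not given in the sources used here. How reads were shared between overlapping transcripts was not tested, so the 5 are not separate results. The other 5 of the 10 did not pass, as *Tssc4* next to *Cd81* did not, and *Cdkn1c* rose within the same span. Near the *Dlk1-Dio3* cluster 92 genes were listed, mostly small RNAs, and the 1 tested, *Ppp2r5c*, had a log2 fold change of 0.30. Near *Rasgrf1*, *Ctsh*, a cathepsin gene, had a log2 fold change of 0.98, just under the fold threshold.

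**Figure D4:**
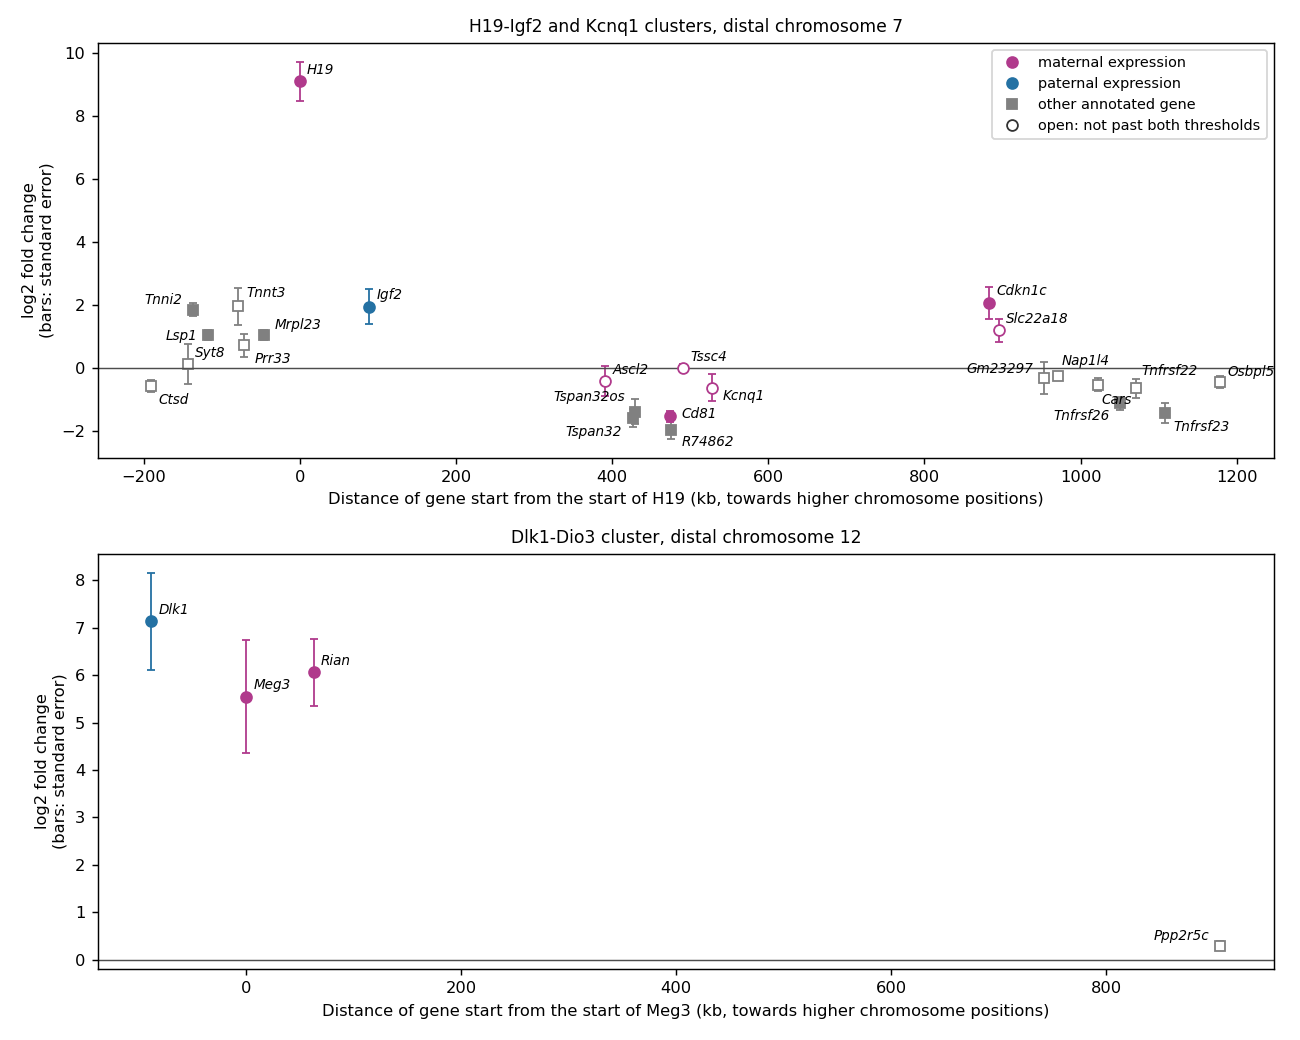
The log2 fold change of *MxCDX2* against control mice for tested genes of the *H19-Igf2* and *Kcnq1* clusters (top) and the *Dlk1-Dio3* cluster (bottom) and within 200 kb of them, by the distance in kb of each gene start from that of *H19* or *Meg3*, with bars of 1 standard error. *H19* stands at 9.11, and the 7 other annotated genes within 200 kb of the *H19-Igf2* cluster range from -0.57 (*Ctsd*) to 1.96 (*Tnnt3*, not past both thresholds).

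Of 28 further imprinted genes counted, 20 were tested, 2 rose and 3 fell, beside 4.59% and 9.03% of all genes. *Atp10a*, a lipid-transporting ATPase, and *H13*, a signal peptide peptidase, rose. *Atp10a* had 2922, 3180 and 2801 counts in *MxCDX2* mice against 1187, 1161 and 798 in control mice, and *H13* had a log2 fold change of 1.02. *Sfmbt2*, a polycomb protein, *Ampd3*, an AMP deaminase of red cells, and *Tnfrsf23* fell with log2 fold changes of -1.29 for *Sfmbt2* and -1.42 for *Tnfrsf23*, and *Ampd3* went from 4576 to 7019 counts in control mice to 2058 to 2356.

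Of 14 genes that set or keep imprints, edgeR tested 12 and DESeq2 14, and neither called any. Over all genes edgeR called 13.6% and DESeq2 15.7%, so in a list this short nothing is read from the absence of calls. By edgeR 4 of the genes had an unadjusted p below 0.05. These 4 were *Dnmt3a*, *Dnmt3l*, *Setdb1* and *Uhrf1*. The de novo methyltransferase gene *Dnmt3a* had 2516, 2631 and 2775 counts in *MxCDX2* mice and 3610, 3899 and 8311 in control mice, with an adjusted p of 0.069. Its cofactor gene *Dnmt3l* had a log2 fold change of 1.02 and an adjusted p of 0.11. The histone methyltransferase gene *Setdb1* had a log2 fold change of 0.31 (SE 0.11), with all 3 *MxCDX2* mice above the control mice, and *Uhrf1*, which guides DNA methylation to new strands, -0.50 (SE 0.21). The maintenance methyltransferase gene *Dnmt1* had a log2 fold change of 0.04 (SE 0.16).

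The cell makeup of the marrow differed between the groups, and in bulk samples fewer cells of a type and less RNA per cell cannot be told apart. All 4 monocyte markers rose, with a summed count of 173147 to 222171 in *MxCDX2* mice against 47083 to 51414 in control mice, and all 7 erythroid markers fell, from 627653 to 709867 down to 16830 to 65134. Of the 5 neutrophil markers 2 fell (*S100a8* and *Ltf*), while the groups overlapped for *Elane* (log2 fold change -0.31) and *Mpo* (0.31). The summed count of the 5, mostly *S100a8*, *Ngp* and *Ltf*, was 553965 to 730904 in *MxCDX2* mice against 1083853 to 1800818 in control mice. Of the 4 megakaryocyte markers 1 fell (*Gp9*) and all 4 were lower in every *MxCDX2* mouse. *H19*, *Dlk1*, *Meg3* and *Igf2* are also known from stromal cells. Of the 10 markers of stroma, bone and endothelium 2 fell (*Cxcl12* and *Cdh5*) and none was at 0. All 3 *MxCDX2* mice were below all control mice for 4 of the markers and above them for 1, *Pdgfrb* (log2 fold change 0.62), and the groups overlapped for 5. The summed count of the 10 markers was 7823 to 16272 in *MxCDX2* mice and 15330 to 57269 in control mice, and most of it was *Cxcl12* in every mouse. Of the 7 stem cell markers 3 fell. All 3 *MxCDX2* mice were below all control mice for 4 of the 7, and the groups overlapped for 3. Their summed count was 895 to 985 in *MxCDX2* mice and 2151 to 13834 in control mice, highest in the wild type mouse. Beside these lists, 4.59% of all genes tested rose and 9.03% fell. The part of any cell type in the change of an imprinted gene was not tested.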

How the data were processed

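Bone marrow RNA from 6 littermate mice was sequenced with a stranded mRNA kit. Per the labels and methods, the authors made reads with bcl2fastq 2.17.1.14, aligned them with STAR 2.5 to GRCm38 (Ensembl release 90) and counted them with HTSeq 0.6.1; the deposited values are raw counts per gene. Lines that name no gene held 12.2% to 17.1% of each library and were left out. Symbols and positions came from GENCODE M21 (GRCm38), which matched 37693 of 39179 identifiers. The imprinted genes and all lists were chosen with earlier results of these data known.

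Counts were analysed with edgeR 4.0.16 in R 4.3.3 (TMM, filterByExpr with a minimum count of 10, quasi-likelihood F test, Benjamini-Hochberg over 15980 genes), 3 *MxCDX2* against 3 control mice, without covariates. A call needed a log2 fold change beyond 1 in either direction with an adjusted p below 0.05, the study's thresholds. Each standard error was back-calculated as the absolute log2 fold change over the square root of the F statistic. For genes with few control reads it is approximate. On counts simulated with 1 common dispersion for all genes and no mouse set apart, 184 of 200 genes changed by a log2 fold of 2 were recovered. There were 7 false calls over 15761 genes. The data hold uneven genes and an atypical control mouse, so this checks the code and does not give the recovery in these data. Named were all called members, other tested members of a mean of at least 100, and listed genes or genes within 200 kb past both thresholds. Other genes given with values were chosen after their values were seen. These were *Ctsh*, *Ctsd*, *Tnnt3*, *Ppp2r5c*, *Slc22a18*, *Airn*, *Ddc*, *Phlda2*, *Ndn* and the genes that set or keep imprints. DESeq2 1.42.0, other scalings, filters and thresholds, a replicate block and leaving out each mouse were the alternatives.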

Additional observations from a re-analysis of the deposited data

How the results depend on the processing

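Of the 12 called imprinted genes, none reversed in 163 recomputed values under 14 alternatives, 135 stayed past the thresholds and 28 did not. Against 7 higher and 5 lower imprinted genes, a minimum of 10 counts in every mouse left 3 higher, since it removes *H19*, *Dlk1*, *Meg3*, *Rian* and *Rasgrf1* by construction, while *Slc22a18* passed. An adjusted p below 0.01 left 3 higher and 2 lower, and DESeq2 gave 9 higher, adding *Slc22a18* and *Mirg*, and 8 lower, adding *Mest*, *Phlda2* and *Ndn*. Leaving out 1 mouse gave 4 to 6 higher and 3 to 5 lower, with 4 higher without control 1 or 2 and 3 lower without any *MxCDX2* mouse. Over all genes, 2177 calls became 3471 with an adjusted p below 0.05 alone, 1043 with an adjusted p below 0.01, and 1205 (without *MxCDX2* mouse 3) to 2406 (without the wild type mouse) with 1 mouse left out. The cause of these moves was not tested. Imprinted genes not called became calls in 7 of 251 alternative values, 6 of them with the fold threshold kept.

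Control mice carry no number in the labels, so the numbers pair nothing. With the replicate block, which takes them as pairs, 7 imprinted genes were higher and 6 lower, adding *Mest*, and 2205 genes of all were called. Deviations of mice with the same number correlated at 0.163 to 0.287 and those with different numbers at -0.333 to 0.114, a hint from the data and not from the design.

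Most genes under the filter are limited by depth: differences of a few reads among 38646101 to 49899650 were not detectable. *Mirg*, *Phlda2* and *Ndn* were also under the filter, and DESeq2 called them. The standard errors come from the edgeR fit and take in the spread among mice. The floor of 3 reads used for *Mirg* is a set value and leaves that spread out.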
